A study of Mus musculus with 4 samples.

Results

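Hhip, Ptch1, Smo, Gli1, Gli2, Gli3, Boc, Cdon and Gas1 are 9 genes of the Hedgehog pathway among the 24421 gene symbols counted in DPPIV- and DPPIV+ fibro-adipogenic progenitors (FAPs) of mouse skeletal muscle. Hhip was chosen by its fold change between these FAP populations, and the other 8 genes were listed with it as members of the same pathway when results of these data were already known. The differences between DPPIV+ and DPPIV- FAPs are therefore given for the 9 genes as a description, without a p-value. In brief, DPPIV+ FAPs had 23.7-fold less Hhip and 4.97-fold less Gli1 than DPPIV- FAPs, and less Boc, Gas1 and Gli2. Ptch1 and Smo were only slightly lower, by 1.28-fold and 1.20-fold, Gli3 was nearly equal, and Cdon was 1.86-fold higher.

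FAPs are stromal cells of the muscle interstitium that can form fibroblasts and adipocytes. Live FAPs (PI- CD31- CD45- Sca1+) were sorted by the surface peptidase DPPIV, encoded by Dpp4, into DPPIV- and DPPIV+ cells, and the same 2 wild-type mice gave a library of each, so that n = 2 mice per population and 4 libraries in all. All of these mice had received a CSF1R inhibitor, which depletes macrophages, for 3 weeks, and regular food for the last 3 days, and no untreated group was sequenced here. The labels name the tibialis anterior, whereas the protocol describes muscle of both hindlimbs. The animals are called mouse 1 and mouse 2, and whether they were littermates or were housed together is not stated in the labels.

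Hedgehog ligands are secreted proteins that bind the receptor Patched (Ptch1). Ligand binding ends the block that Patched holds over Smoothened (Smo), which then acts through the primary cilium on the transcription factors Gli1, Gli2 and Gli3. Boc, Cdon and Gas1 are cell surface co-receptors that bind the ligand, and Hhip is a membrane-associated and secreted protein that binds the ligand and antagonizes it. Gli1, Ptch1 and Hhip are textbook target genes of the pathway and are widely read as its output, and in skeletal muscle Hedgehog ligand acting on FAPs is known to restrain fat formation.

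The sequences before the transcription start are shown for Hhip and Gas1, which had lower counts in DPPIV+ FAPs, and for Cdon, which had higher counts in the same cells, to set their base composition side by side. RefSeq promoter windows of build GRCm38.p6 were found for 7 of the 9 genes, without Gli1 and Boc. Each line gives the 250 bases before the start, 5′ to 3′ on the strand of the gene, with CpG dinucleotides in capitals. The window of Hhip is chr8:80058009-80058258 on the minus strand, that of Gas1 is chr13:60177536-60177785 on the minus strand, and that of Cdon is chr9:35451826-35452075 on the plus strand. The Cdon window lies far inside the span of the gene in GENCODE release M21, which begins at 35421128. It is not the sequence before that GENCODE start. The Gas1 window lies before the GENCODE start of Gas1 at 60177365 but stops short of it, at 60177536.
Hhip: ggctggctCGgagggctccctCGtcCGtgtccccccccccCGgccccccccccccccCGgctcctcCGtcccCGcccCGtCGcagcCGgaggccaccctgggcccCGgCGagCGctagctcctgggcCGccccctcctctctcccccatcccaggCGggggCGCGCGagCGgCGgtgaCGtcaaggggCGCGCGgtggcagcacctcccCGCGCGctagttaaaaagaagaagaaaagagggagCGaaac
Gas1: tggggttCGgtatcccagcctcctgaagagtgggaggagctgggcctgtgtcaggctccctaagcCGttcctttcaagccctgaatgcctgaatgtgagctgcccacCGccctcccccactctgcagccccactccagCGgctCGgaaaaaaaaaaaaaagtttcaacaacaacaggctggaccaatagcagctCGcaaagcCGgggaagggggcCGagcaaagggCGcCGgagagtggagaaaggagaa
Cdon: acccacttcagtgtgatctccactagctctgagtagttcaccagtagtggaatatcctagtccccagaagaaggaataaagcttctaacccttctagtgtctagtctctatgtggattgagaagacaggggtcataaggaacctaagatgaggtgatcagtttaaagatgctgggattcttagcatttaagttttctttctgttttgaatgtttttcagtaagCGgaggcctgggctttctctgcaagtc

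The Hhip window held 28 CpG dinucleotides and had a GC content of 76.0%, the Gas1 window 10 and 58.8%, and the Cdon window 1 and 42.8%. Over all 32851 RefSeq windows of this length, the median was 6 CpG dinucleotides, 7.61% of windows had at least as many as Hhip, and 18.8% had no more than Cdon. The windows of Ptch1, Gli3, Gli2 and Smo held 41, 34, 22 and 15. Like that of Cdon, the windows of Ptch1 and Gli3 lie inside the GENCODE span of the gene, because RefSeq starts there. That of Gli3 is near the GENCODE start. The CpG counts of Hhip and Cdon thus set a window at the GENCODE start against one far inside the gene. The GLI binding motif GACCACCCA was searched on both strands. It was in none of the 7 windows, neither exactly nor with 1 mismatch, against 0.225% of all windows for an exact match and 5.79% with up to 1 mismatch. In the Hhip window the closest match had 2 mismatches. This says only that these letters are not in these windows.

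Between 18240110 and 20879405 reads were counted on genes per library, and 3 reads, the limit that a count of 0 allows, correspond to between 0.144 and 0.164 CPM (counts scaled to a library of fixed size), for counting error only. Dpp4 had 1879 and 776 reads in the DPPIV- libraries of mouse 1 and mouse 2, against 13106 and 10476 in the DPPIV+ libraries. The 8 FAP markers listed summed to between 60702 and 71991 CPM per library, with the largest part from Col3a1 (31446 to 35490 CPM). Of these 8 markers, edgeR called 4 lower (50%) and 2, Ly6a and Cd34, higher (25%) in DPPIV+ FAPs. Over all genes tested the shares were 17.2% and 15.9%. Pecam1 and Ptprc, the genes of the excluded CD31 and CD45, were not absent, with 204 to 427 and 117 to 204 reads per library. Xist had 153 and 166 reads in the libraries of mouse 1 and 1 and 3 in those of mouse 2, while 4 Y-linked genes summed to between 125 and 135 CPM in every library. Reads of Xist and of Y-linked genes were thus found together in both libraries of mouse 1. What this means for the animal was not tested. The ratio within each mouse is given for Hhip and the pathway genes listed with it, and for other genes only where stated.

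Hhip, the antagonist that binds the ligand, was counted 350 times in the DPPIV- library of mouse 1 and 396 times in that of mouse 2, against 16 and 12 times in their DPPIV+ libraries. On library sizes scaled by the TMM method these were 16.7 and 20.2 CPM in DPPIV- FAPs and 0.889 and 0.658 CPM in DPPIV+ FAPs. Both DPPIV- libraries were far above both DPPIV+ libraries, and reads of Hhip were still found in each DPPIV+ library. The fitted log2 difference was -4.57, with a standard error (SE) of 0.22 and a 95% interval from -5.00 to -4.13, or 23.7-fold lower in DPPIV+ FAPs. It was -4.22 in mouse 1 and -4.93 in mouse 2. SEs and intervals here and below use the spread of genes of like abundance, and do not measure the spread between the 2 mice. Among the 1989 genes with a decrease past the threshold, Hhip was at rank 3 by size, between Esm1 (log2 fold change -5.60) and Frmd5 (-4.56), both of which had no more than 3 reads in either DPPIV+ library. Hhip passed the filter on low counts only through the DPPIV- libraries. Bulk counts do not tell fewer cells with a transcript from less of it per cell, here or in any comparison that follows.

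**Figure D1:**
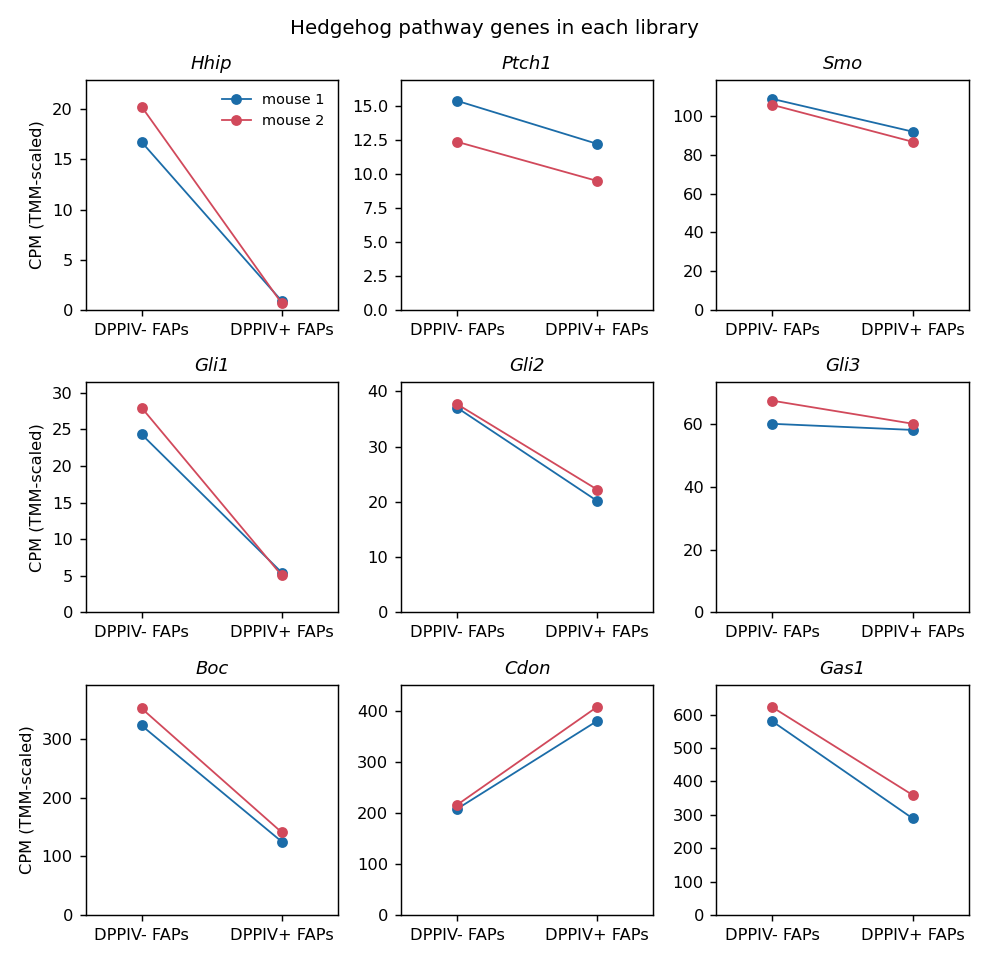
CPM on TMM-scaled library sizes (y axis, from 0, a separate scale per gene) of the 9 Hedgehog pathway genes in DPPIV- and DPPIV+ FAPs (x axis), each point a library and each line a mouse. Hhip and Gli1 sit near the bottom in both DPPIV+ libraries, Cdon is higher there in both mice, and for Gli3 the populations overlap. With 2 libraries per population, a lack of overlap alone says little.

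Ptch1, the main ligand receptor, was counted at 322 and 242 reads (15.4 and 12.4 CPM) in the DPPIV- libraries, mouse 1 first, and at 220 and 173 reads (12.2 and 9.49 CPM) in DPPIV+ FAPs. Both DPPIV+ values were below both DPPIV- values, but the populations nearly touched, with DPPIV- FAPs of mouse 2 close to DPPIV+ FAPs of mouse 1. The fitted log2 difference was -0.36, with an SE of 0.14 and a 95% interval from -0.63 to -0.09, and the mice gave -0.33 and -0.38. Smo, the membrane protein that carries the signal onward, had 2279 and 2070 reads (108.9 and 105.8 CPM) in DPPIV- FAPs and 1657 and 1582 reads (92.0 and 86.8 CPM) in DPPIV+ FAPs. The Smo groups did not overlap, and the difference was small, at -0.26 on the log2 scale, with an SE of 0.07 and a 95% interval from -0.39 to -0.14 (-0.24 in mouse 1, -0.29 in mouse 2).

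Per kilobase of exon, the co-receptors included the most abundant of the 9 genes, and they differed in opposite directions. Boc had 6778 and 6908 reads (324 and 353 CPM) in the DPPIV- libraries, and 2255 and 2572 reads (125 and 141 CPM) in DPPIV+ FAPs. Boc was 2.54-fold lower, at -1.35 on the log2 scale, with an SE of 0.07 and a 95% interval from -1.48 to -1.21, and the mice gave -1.37 and -1.32. Cdon, the close relative of Boc, had 4348 and 4220 reads (208 and 216 CPM) in DPPIV- FAPs, and 6850 and 7438 reads (380 and 408 CPM) in DPPIV+ FAPs. Here both DPPIV+ libraries were the higher ones, by 0.90 on the log2 scale, with an SE of 0.07 and a 95% interval from 0.76 to 1.03 (0.87 in mouse 1, 0.92 in mouse 2). Gas1, a co-receptor tethered to the membrane by a lipid anchor, had 12132 and 12170 reads (580 and 622 CPM) in DPPIV- FAPs, and 5207 and 6548 reads (289 and 359 CPM) in DPPIV+ FAPs. Gas1 was 1.86-fold lower, at -0.90 on the log2 scale, with an SE of 0.07 and a 95% interval from -1.03 to -0.76. It was at -1.003 in mouse 1 and at -0.79 in mouse 2.

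Because Boc and Cdon differed in opposite directions, their order changed between the populations. Per kilobase of exon, Boc was 2.70 and 2.84 times Cdon in DPPIV- FAPs of mouse 1 and mouse 2, whereas in DPPIV+ FAPs Cdon was 1.75 and 1.67 times Boc. Of the summed level of the 3 co-receptors per exon kilobase, Cdon made up 9.11% and 8.81% in DPPIV- FAPs and 28.2% and 25.7% in DPPIV+ FAPs. Gas1 held the largest share in every library, from 55.8% to 66.3%.

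Among the transcription factors, Gli1, the member that acts only as an activator and is itself a target gene, had 509 and 547 reads (24.3 and 28.0 CPM) in the DPPIV- libraries, and 98 and 92 reads (5.44 and 5.05 CPM) in DPPIV+ FAPs. The groups were far apart, at -2.31 on the log2 scale, with an SE of 0.14 and a 95% interval from -2.58 to -2.05 (-2.16 in mouse 1, -2.47 in mouse 2). Gli2, the main activator when the pathway is switched on, had 775 and 737 reads (37.0 and 37.7 CPM) in DPPIV- FAPs, and 363 and 405 reads (20.2 and 22.2 CPM) in DPPIV+ FAPs. Gli2 was 1.76-fold lower, at -0.82 on the log2 scale with an SE of 0.09 (-0.88 in mouse 1, -0.76 in mouse 2). Gli3, which is mainly processed into a repressor in the absence of ligand, had 1260 and 1322 reads (60.2 and 67.6 CPM) in DPPIV- FAPs, and 1049 and 1098 reads (58.3 and 60.2 CPM) in DPPIV+ FAPs. The Gli3 groups overlapped, and the interval of its log2 fold change, -0.24 to 0.03 around -0.11, included 0 (-0.05 in mouse 1, -0.17 in mouse 2). Gli1 thus made up 29.4% and 30.9% of the summed Gli level per exon kilobase in DPPIV- FAPs, and 10.8% and 9.60% in DPPIV+ FAPs, and Gli3 went from 38.0% and 38.9% to 60.2% and 59.7%.

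**Figure D2:**
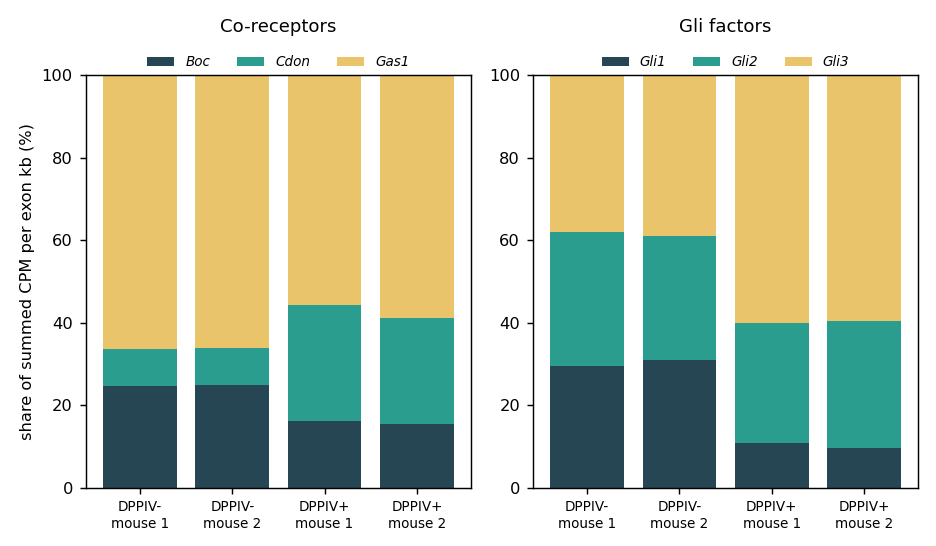
Share of the summed level (CPM per kilobase of exon, y axis in percent) that each gene holds within the co-receptors and within the Gli factors, in each of the 4 libraries (x axis). Bars add up to 100% in each library. Within a set, the libraries of a population resemble each other: Cdon and Gli3 take larger shares in DPPIV+ FAPs, and Gas1 holds most of the co-receptor level throughout.

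Of the 9 genes, 9 passed the filter on low counts, 7 were called lower and 1 (Cdon) higher in DPPIV+ FAPs with edgeR's quasi-likelihood test, and Gli3 was not called. Over all 11588 genes tested, 17.2% were called lower and 15.9% higher. With DESeq2's Wald test 5 of the 9 were called lower and 1 higher, against 8.59% and 7.97% of all genes, and the calls of Ptch1 and Smo were lost. Without the animal in edgeR's model 6 were called lower and 1 higher, against 9.66% and 8.64%, and the call of Ptch1 was lost. As the 9 genes were chosen with this contrast known, nothing is read from these counts. The median log2 fold change was -0.82 over the 9 genes and -0.00199 over all genes tested.

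**Figure D3:**
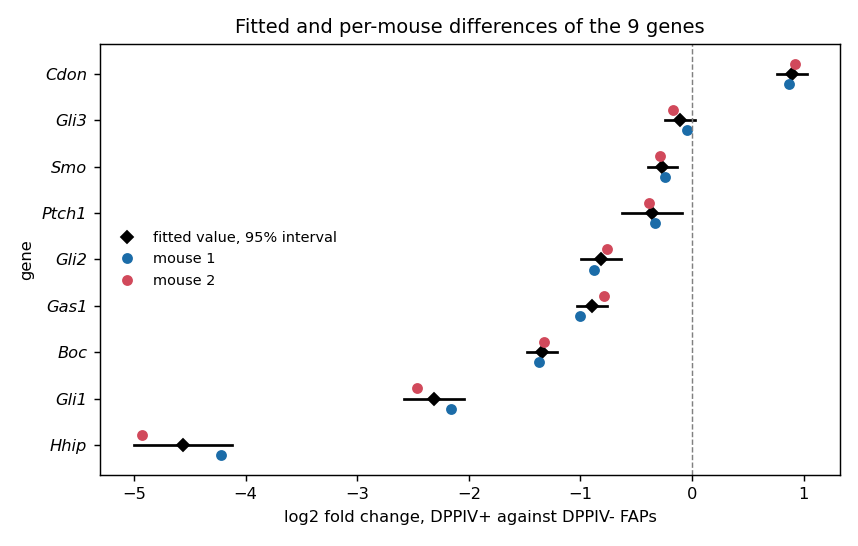
Log2 fold change between DPPIV+ and DPPIV- FAPs (x axis) of the 9 genes (y axis), with the fitted value and its 95% interval as a black diamond and bar and the ratio within each mouse as coloured points. The genes run from Hhip at -4.57 to Cdon at 0.90, and Gli3 lies nearest to 0.

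Levels were compared between the genes per kilobase of exon, from the union of the exons of each gene in GENCODE release M21. In DPPIV- FAPs the order from high to low was Gas1 (203 ± 10.1 CPM per kilobase, SD, n = 2), Boc (76.1 ± 4.65), Cdon (27.4 ± 0.730), Smo (19.1 ± 0.388), Gli3 (6.66 ± 0.544), Gli2 (5.44 ± 0.0662), Gli1 (5.23 ± 0.515), Hhip (2.04 ± 0.274) and Ptch1 (0.978 ± 0.150). Only Gli2 and Gli1 were neighbours whose ranges over the mice overlapped. In DPPIV+ FAPs the order was Gas1 (109 ± 16.7), Cdon (51.1 ± 2.53), Boc (29.9 ± 2.52), Smo (15.9 ± 0.659), Gli3 (6.18 ± 0.146), Gli2 (3.08 ± 0.212), Gli1 (1.05 ± 0.0560), Ptch1 (0.765 ± 0.136) and Hhip (0.0852 ± 0.0179), and no neighbours overlapped on this length. Hhip was therefore above Ptch1 in DPPIV- FAPs and below it in DPPIV+ FAPs. The length used for Ptch1, 14185 bases over all its isoforms, exceeds that of its longest coding transcript, 7725 bases. By the longest coding transcripts, a length chosen after seeing the data, Hhip had 1.84 and 2.23 CPM per kilobase in DPPIV- FAPs and Ptch1 had 1.99 and 1.60, so that they overlapped, while in DPPIV+ FAPs Hhip (0.0979 and 0.0726) stayed below Ptch1 (1.58 and 1.23). On that length Ptch1 also overlapped Gli1 (1.34 and 1.24) in DPPIV+ FAPs and had the higher mean, so the order of Gli1 and Ptch1 there depends on the length used.

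The choice of the genes did not use the difference between the mice, and this was tested in the same model. Each side of the comparison is 1 animal, and its libraries are the sorted populations of that animal and not replicates of it, so the SEs and p-values below compare these animals only. Gas1 was higher in mouse 2, by 0.21 on the log2 scale with an SE of 0.07 (adjusted p = 0.0340 by edgeR), and was the 1 gene of 9 past the threshold, against 8.98% of all genes tested. The adjusted p of Gas1 ran from 0.0272 to 0.686 over the alternatives, and it passed neither with RLE size factors (0.0655) nor in DESeq2. DESeq2 called 0 of the 9 genes between the mice (1 at an unadjusted p under 0.05), against 0.949% of all genes. Ptch1 differed by -0.34 (SE 0.14, adjusted p = 0.111 by edgeR) and Hhip by 0.21 (SE 0.18, adjusted p = 0.573).

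The ligands of the pathway were at or near 0 in these cells. Shh had 0 reads in all 4 libraries, Ihh had 0 and 2 reads in DPPIV- FAPs and 2 and 0 in DPPIV+ FAPs, and Dhh, the ligand made by Schwann cells, had 5 and 4 reads in DPPIV- FAPs and 5 and 8 in DPPIV+ FAPs. The genes for ligand processing and release were partly expressed. These genes and the lists of other pathway genes below were also chosen with earlier results of these data known. Their p-values therefore describe these data and are not independent evidence. Disp1, which releases the lipid-modified ligand from cells that make it, rose in DPPIV+ FAPs from 897 and 847 reads to 1718 and 1610 reads, or 1.09 on the log2 scale with an SE of 0.07 (adjusted p = 1.04e-54 by edgeR). Hhat, the acyltransferase of the ligand, and Scube2, which helps to release it, fell by 0.40 and 0.77 on the log2 scale (adjusted p of 0.0152 and 0.0111 by edgeR), and neither passed in DESeq2 (0.378 and 0.392). Scube1 was below the filter, with 37 and 34 reads in DPPIV- FAPs and 12 and 10 in DPPIV+ FAPs, and Disp2 and Scube3 had no more than 4 reads in any library. Of the other proteins that bind the ligand, Gpc3, a glypican that competes for it, fell in DPPIV+ FAPs by 0.65 on the log2 scale (adjusted p = 8.89e-21 by edgeR), and Lrp2 had no more than 2 reads in any library.

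In 6 lists of other Hedgehog pathway genes, 113 genes in all, 87 passed the filter, 15 (17.2%) fell and 15 (17.2%) rose in DPPIV+ FAPs, shares near those of all genes tested. In DESeq2 7 (8.05%) fell and 6 (6.9%) rose, against 8.59% and 7.97% of all genes tested. Of 33 genes that carry the signal inside the cell, 4 (12.1%) fell, 9 (27.3%) rose and 20 did not pass, against 17.2% and 15.9% of all genes tested. In DESeq2 1 fell and 3 rose, against 8.59% and 7.97%. The ubiquitin ligases Smurf2 and Smurf1, which act on the TGF-beta pathway and on Patched, rose most, by 1.25 and 1.02 on the log2 scale (adjusted p of 3.41e-74 and 7.60e-51 by edgeR). Arrb1, an arrestin that binds Smo, fell by 0.50 (adjusted p = 4.13e-13). Gpr161, a ciliary receptor that holds the pathway off, and Dyrk2, a kinase of Gli proteins, rose by 0.47 each, and neither passed in DESeq2 (adjusted p of 0.233 and 0.0517). Sufu, the main inhibitor of Gli proteins, had a log2 fold change of 0.07 (95% interval -0.10 to 0.23). It was named after its values were seen.

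Of 37 genes of the primary cilium, 3 (8.11%) fell, 3 (8.11%) rose and 31 did not pass, against 17.2% and 15.9% of all genes tested. In DESeq2 1 (2.7%) fell and 0 rose, against 8.59% and 7.97% of all genes tested. Ift81, a subunit of the intraflagellar transport machinery, fell by 0.60 on the log2 scale (adjusted p = 5.82e-07 by edgeR, 0.0217 in DESeq2). B9d1 and Dync2li1 fell by 0.42 and 0.35, and Ift140 and Ttbk2 rose by 0.45 and 0.32, each without passing in DESeq2. The median log2 fold change of the list was -0.01.

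Of 20 genes known as Hedgehog targets in some tissue, 10 passed the filter, 4 fell, 2 rose and 4 did not pass, with the same counts in DESeq2. These are 40.0% and 20.0% of the 10, against 17.2% and 15.9% of all genes tested by edgeR and 8.59% and 7.97% by DESeq2. Sfrp1, a secreted Wnt inhibitor, fell by 1.54 (log2, SE 0.07, adjusted p = 1.45e-106 by edgeR), from 4763 and 6330 reads to 1601 and 1785 reads. Bcl2, which blocks apoptosis, and Snai1, a transcriptional repressor, fell by 0.94 and 0.79 (adjusted p of 5.89e-17 and 1.70e-20). Ccnd1, the cyclin of the early cell cycle, and Timp3, a metalloproteinase inhibitor, rose by 0.84 and 0.65 (adjusted p of 8.94e-32 and 7.57e-19). The target list thus held both directions.

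Of 12 relatives of the pathway's proteins, 3 passed the filter. Hhipl1, which resembles Hhip, fell by 0.34 (log2, SE 0.10, adjusted p = 0.00427 by edgeR and 0.317 by DESeq2), with 412 and 573 reads in DPPIV- FAPs and 294 and 405 in DPPIV+ FAPs, which overlap on the CPM scale. Glis2 and Glis3, zinc finger relatives of the Gli factors, did not pass (log2 fold changes of -0.16 and -0.10). Hhipl2 had between 6 and 18 reads per library, and Glis1, Zic1, Zic2, Zic4, Ptchd1 and Ptchd4 had between 0 and 8.

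**Figure D4:**
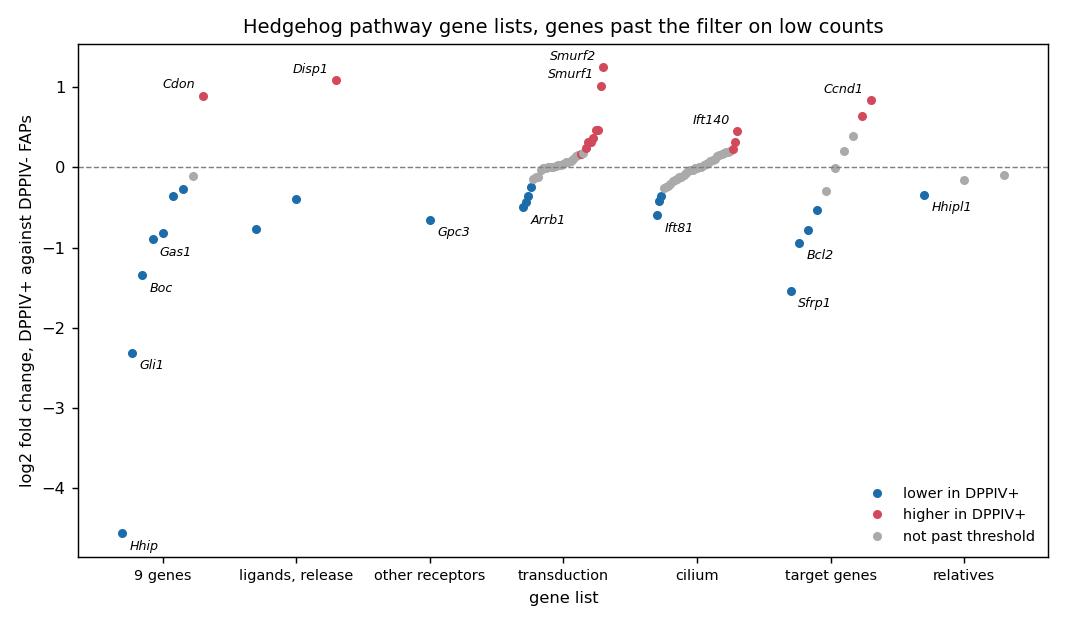
Log2 fold change between DPPIV+ and DPPIV- FAPs (y axis) of the 9 genes and of 6 lists of other Hedgehog pathway genes (x axis), each point a gene past the filter, coloured by its call by edgeR at an adjusted p of 0.05. Most genes of transduction and cilium lie near 0, Hhip and Gli1 lie lowest, and Disp1, Smurf1, Smurf2 and Cdon lie near 1.

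The genes most like Hhip over the 4 libraries were found by the Euclidean distance between log2 CPM values centred on their mean, where a value of 0 is an identical pattern. They were Susd5 (distance 0.327), Col9a2 (0.338), Il31ra (0.451), Tnn (0.520) and Frmd5 (0.779). All had fewer reads than Hhip, with 110 and 110 reads of Susd5 in DPPIV- FAPs against 6 and 4 in DPPIV+ FAPs, and 49 and 52 reads of Col9a2 against 2 and 2. Of the 9 genes, Gli1 was nearest to Hhip, at a distance of 2.27, followed by Boc at 3.26, and Cdon was farthest, at 5.49. The distances come from the same 4 libraries as the difference by which Hhip was chosen. Their order over the 9 genes is that of the fold changes, so they add no separate result.

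Some markers of other cells also differed between the populations. The counts below stand against 17.2% of all genes tested called lower and 15.9% higher by edgeR, and 8.59% and 7.97% by DESeq2. Of 6 mural cell markers 5 were called lower in DPPIV+ FAPs, 3 of them also in DESeq2. The summed level of the 6 was 121 and 123 CPM in DPPIV- FAPs and 51.2 and 63.5 CPM in DPPIV+ FAPs. Cspg4 led these sums, with 63.4 and 76.0 CPM in DPPIV- FAPs and 22.7 and 35.9 CPM in DPPIV+ FAPs. The fitted log2 fold changes of the 6 ran from -1.60 to -0.28. Of 6 tenocyte markers 5 were called higher and 1 lower, with sums of 1810 and 2411 CPM in DPPIV- FAPs and 1938 and 3835 CPM in DPPIV+ FAPs. Thbs4 made up most of the sum in DPPIV- FAPs (1602 and 2096 CPM) and was the marker called lower, without passing in DESeq2 (adjusted p = 0.851). Its log2 ratio was -0.47 in mouse 1 and 0.08 in mouse 2. The other 5, among them Scx, Tnmd and Fmod, rose by 1.27 (Tnmd) to 2.26 (Fmod) on the log2 scale and passed in DESeq2 too. The sums of 6 Schwann cell markers were 35.9 and 32.2 CPM in DPPIV- FAPs and 25.7 and 32.3 CPM in DPPIV+ FAPs, with 2 called lower and 1 higher. Of 6 markers each, 4 of endothelium and 4 of blood cells and macrophages were called lower, and 1 of endothelium, Tek, higher. In mouse 2 several of those called lower differed little. Log2 ratios in mouse 1 and mouse 2 were -0.80 and -0.0006 for Pecam1, and -0.95 and 0.10 for Kdr. They were -0.59 and -0.001 for Csf1r, -0.58 and -0.05 for C1qa, and -0.75 and -0.04 for Lyz2. Cdh5, Vwf and Adgre1 were lower in both mice, at -0.32, -0.34 and -0.37 in mouse 2. In DESeq2 0 of these 8 markers were called lower. In DPPIV- FAPs the sums of both lists were larger in mouse 1 (254 and 319 CPM) than in mouse 2 (187 and 188 CPM), while in DPPIV+ FAPs they were 507 and 198 CPM in mouse 1 and 462 and 181 CPM in mouse 2. Tek carried most of the endothelial sum, with 187 and 149 CPM in DPPIV- FAPs and 467 and 427 CPM in DPPIV+ FAPs. The fitted log2 fold changes of the other 5 endothelial markers were below 0. Perineurium, satellite cell and myofibre lists summed to between 6.16 and 75.8 CPM per library, with 1, 1 and 0 markers called lower. No marker listed was at 0 in all 4 libraries. The part of these cells in the differences of Hhip, Gli1 and the other genes was not tested.

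In GRCm38, GENCODE release M21 places Hhip (ENSMUSG00000064325.4) at chr8:79965851-80058006 on the minus strand, Ptch1 (ENSMUSG00000021466.12) at chr13:63508328-63573598 on the minus strand, Smo (ENSMUSG00000001761.7) at chr6:29735503-29761365 on the plus strand, Gli1 (ENSMUSG00000025407.7) at chr10:127329882-127341974 on the minus strand, Gli2 (ENSMUSG00000048402.14) at chr1:118834132-119053619 on the minus strand. It places Gli3 (ENSMUSG00000021318.15) at chr13:15463235-15730026 on the plus strand, Boc (ENSMUSG00000022687.12) at chr16:44485049-44558897 on the minus strand, Cdon (ENSMUSG00000038119.15) at chr9:35421128-35507652 on the plus strand and Gas1 (ENSMUSG00000052957.8) at chr13:60174405-60177365 on the minus strand. These spans are whole genes, and the counts are over their exons.

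Reads from overlapping genes limit some of these values, since the use of strand in the counting is not given in the sources used here. On the opposite strand, exons of Gas1 share 589 of 2961 bases with Gm48488, those of Gli1 share 265 of 4995 bases with Gm47200 and 62 with Arhgap9, those of Gli3 share 188 bases with Gm6556, and those of Hhip share 175 of 9076 bases with Gm27820. Of these neighbours the table counts Arhgap9, which had 37 and 16 reads in DPPIV- FAPs and 26 and 11 in DPPIV+ FAPs.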

How the data were processed

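RNA of sorted DPPIV- and DPPIV+ FAPs from 2 mice was sequenced as 4 paired-end libraries. The authors demultiplexed reads with bcl2fastq (2.20, per the labels), aligned them to mm10 with STAR (the notes also name Bowtie) and tallied them per annotated gene with RnaReadCounter. They deposited raw counts for 24421 gene symbols, with no filter. The labels name a stranded NEBNext Ultra II kit, the paper's methods a TruSeq kit, and neither states the annotation or the strand setting.

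Of these symbols, 7548 had no read, and 11588 reached 2 CPM in 2 or more libraries and were tested with edgeR 4.0.16 (TMM, quasi-likelihood F test, two-sided) in R 4.3.3. The model held a term for the animal and a term for the population, and adjusted p-values (Benjamini-Hochberg) were read against 0.05. Moderation was complete: the spread of each gene was that of genes of like abundance, which makes p-values very small. Standard errors are the fold change over the square root of F, and ratios per mouse use a prior count of 0.125. CPM values use the scaled totals of the genes kept. Mice pair the libraries through the animal numbers in the labels, and the differences between mice in both populations correlated at 0.415 (across genes, not independent replicates). DESeq2 1.42.0 was the main alternative. The scripts were checked on simulated counts.

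The 9 genes and the lists were chosen with earlier results of these data known. Named are the 9 genes, the ligand, release, receptor and relative genes with a read, up to 5 called genes with the largest change from each larger list, the 5 genes nearest to Hhip and the genes beside Hhip in rank. Positions and exon lengths are from GENCODE release M21 (GRCm38, the mm10 build), and promoters from RefSeq. Adrbk1 was used for Grk2. A listed gene is not reported here and is left out of the list counts.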

Additional observations from a re-analysis of the deposited data

How the results depend on the processing

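The log2 fold changes of the 9 genes kept their direction under every alternative that gave a value. With both mice, that of Hhip ran from -4.61 to -4.55, and leaving out each replicate gave -4.93 (without mouse 1) and -4.22 (without mouse 2), as values with no test because 1 library per population was left. With a filter of 2 CPM in at least 3 libraries Hhip was removed and gave no value. Upper-quartile normalization moved the median of all genes to -0.0450. The count of the 9 genes called lower ran from 5 (DESeq2) to 7, and Cdon was called higher in each fit. For the other pathway lists, DESeq2 gave 7 lower and 6 higher genes in place of 15 and 15, and no replicate block, which leaves out the pairing by mouse, gave 7 and 12. Calls over all genes tested fell as well, from 17.2% lower and 15.9% higher. They were 8.59% and 7.97% in DESeq2, and 9.66% and 8.64% without the block. Between the mice, 0 of the 9 genes were called in DESeq2, with RLE size factors in edgeR (3 at an unadjusted p under 0.05) and at an adjusted p under 0.01, in place of 1 (Gas1). The causes of these changes were not tested. By the longest coding transcripts, Smo and Cdon (overlapping ranges) and Gli1 and Gli2 exchanged places in DPPIV- FAPs, and Gli1 and Ptch1 (overlapping ranges) in DPPIV+ FAPs. With 2 mice, precision is limited by their number, and for Hhip in DPPIV+ FAPs by 16 and 12 reads.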
